A study of Mus musculus with 59 samples.

Results

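The genes described here make up the deposition machinery of the replacement histone H3.3. They are Daxx and its partner Atrx, the H3.3 genes H3f3a and H3f3b, the HIRA complex genes Hira, Ubn1 and Cabin1, and the histone donor Asf1a. They were chosen by name, and all 8 were found among the 51810 to 51812 genes of each of 10 gene tables, which hold 59 RNA-seq libraries of mouse haematopoietic cells. Asf1a was listed at 0 throughout, so 7 of the 8 passed the filter on low values (a mean of 10 or more over the libraries of a table) and could be tested.

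RNA was measured in populations sorted from the bone marrow of C57BL/6 mice, to learn what loss of Daxx, of Pu.1 (encoded by Spi1) or of both does to stem and progenitor cells. Controls (WT) were Daxx +/+ Cre +/-, Daxx-KO were Daxx F/F Cre +/-, and double knockouts (DKO) had Daxx F/F together with Pu.1 F/F and Cre +/-, so every group carried Cre, controls included. KLS cells are lineage-negative cells with c-Kit and Sca-1, among them the stem cells. Granulocyte-monocyte progenitors (GMPs) are already restricted to the myeloid lineage. The labels give no age, and per the methods of the study Cre was usually induced in young mice and animals of either sex were included.

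KLS cells and GMPs without a time point (called untimed) had 2 WT and 2 Daxx-KO libraries each, with no Cre line on the label. The methods of the study also describe KLS cells and GMPs sorted from irradiated mice that had received Daxx +/+ or Daxx F/F bone marrow. Whether the untimed libraries are these is not given by the labels. Sets from 3 weeks post induction (w.p.i.) of Mx1Cre, a Cre driven by an interferon-responsive promoter that is active beyond blood cells, had 3 WT, 3 Daxx-KO and 2 DKO libraries for each population, and the GMP columns carry the animal numbers of the KLS columns. A separate Mx1Cre set at 3 w.p.i. had 2 control libraries with Pu.1 +/+ and 2 Pu.1-KO libraries with Pu.1 F/F of each population, and WT there means Pu.1 +/+. At 24 w.p.i. each population had 2 WT libraries and 4 with Daxx F/F, of which the column names do not say which were Daxx-KO and which DKO. The multipotent progenitors MPP3 and MPP4 (4 libraries each, Mx1Cre, 3 w.p.i.) and long-term haematopoietic stem cells (LT-HSCs, 7 libraries, 3 days after induction of RosaCreER, which is driven from a locus active in all tissues) have columns that name the cell type and no genotype. By the labels the MPPs were Daxx +/+ or Daxx F/F (2 each per population), and the LT-HSCs were Daxx +/+ (2), heterozygous Daxx +/F (2) or Daxx F/F (3). Fewer cells with a transcript cannot be told apart from less transcript per cell in these bulk libraries.

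Values are deposited normalized counts, that is reads divided by 1 size factor per library. Genotypes were compared within a table by limma on log2(value + 1), and a gene was called at an adjusted p under 0.05, adjusted over all genes of the table that were tested. Where nothing on the label shows separate cultures or animals, p-values measure only the spread between these libraries. Letters after a group (a, b, c) name libraries for which the labels give no number.

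Canonical H3 is made in S phase and laid down behind the replication fork, whereas H3.3 is made throughout the cell cycle and is placed in chromatin independently of replication. The HIRA complex does this at active genes, and DAXX with the ATP-dependent remodeller ATRX does it at telomeres, pericentromeric repeats and endogenous retroelements. ASF1 proteins hand H3-H4 dimers to HIRA and, for the replicative histones, to CAF-1.

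H3.3 is unusual in that separate genes encode the same protein, and their coding sequences differ only by silent bases. The coding sequences of H3f3a and H3f3b (GENCODE transcripts H3f3a-205 and H3f3b-202, GRCm38) are both 411 bases long and differ at 95 of these, 81 of them at the third position of a codon. Both encode 136 amino acids, of which 0 differ. The first 90 coding bases are shown because they carry these silent differences, which are in capitals (20 in the stretch).
H3f3a: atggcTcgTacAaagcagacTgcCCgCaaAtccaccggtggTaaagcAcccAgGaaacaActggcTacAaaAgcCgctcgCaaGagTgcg
H3f3b: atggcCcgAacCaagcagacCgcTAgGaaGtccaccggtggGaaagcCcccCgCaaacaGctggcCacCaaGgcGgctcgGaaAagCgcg

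H3f3a lies on chromosome 1 (GRCm38, 180800832 to 180813943, minus strand) and H3f3b on chromosome 11 (116021912 to 116027962, minus strand). The processed pseudogene H3f3c is 99.0% identical to the coding bases of H3f3a and 76.4% to those of H3f3b, so reads of H3f3a could have been split with it, and the level of H3f3a is less certain than that of H3f3b. H3f3c was listed at 0 in the 8 libraries of the Pu.1 set and ranged from 15.5 to 841 in the WT libraries of the other KLS and GMP tables.

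Daxx lies on chromosome 17 (33909414 to 33915590, plus strand) and overlaps no other annotated gene. The floxed stretch covers exons 2 to 7, which in the 8-exon transcript Daxx-202 hold 2179 of 2673 bases (81.5%), the start codon and 97.3% of the coding bases. Exons 1 and 8 (18.5% of the transcript) stay outside it. The junction of exons 7 and 8 is shown because it is the right-hand border of what the deletion removes from the message, with the deleted exon in capitals.
Daxx exon 7 to exon 8: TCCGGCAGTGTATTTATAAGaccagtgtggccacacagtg

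Daxx, the histone-binding member, separated the genotypes completely: no Daxx-KO or DKO value reached any WT value of the same table, and Daxx was called in all 6 comparisons with WT. In untimed KLS cells it had normalized counts of 119 and 138 in WT and 33.9 and 29.7 in Daxx-KO. The log2 difference was -1.98 ± 0.29 (SE, adjusted p = 0.00158, limma). Without either Daxx-KO library the direction held and the call did not (log2 differences of -2.07 without Daxx-KO 1 and -1.88 without Daxx-KO 2, adjusted p of 0.0640 and 0.0925, limma). In untimed GMPs the values were 215 and 143 in WT and 44.6 and 22.8 in Daxx-KO, a log2 difference of -2.42 ± 0.36 (adjusted p = 0.000984, limma).

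At 3 w.p.i. the same separation was seen. KLS cells had 423, 467 and 505 in WT, 82.6, 102 and 72.2 in Daxx-KO, and 93.9 and 78.1 in DKO. The log2 differences from WT were -2.44 ± 0.23 in Daxx-KO (adjusted p = 0.00373, limma) and -2.42 ± 0.26 in DKO (adjusted p = 0.000545, limma). GMPs had 642, 622 and 688 in WT, 83.0, 55.1 and 78.1 in Daxx-KO, and 62.9 and 78.9 in DKO. Their log2 differences were -3.18 ± 0.24 (adjusted p = 0.000763, limma) and -3.19 ± 0.27 (adjusted p = 0.00557, limma).

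The Daxx signal that was left, as a percent of the WT mean, was 15.5 to 22.0 in Daxx-KO KLS cells and 8.47 to 12.8 in Daxx-KO GMPs at 3 w.p.i. It was 16.8 to 20.2 in DKO KLS cells and 9.67 to 12.1 in DKO GMPs, and in untimed cells it was 23.2 to 26.4 in KLS and 12.8 to 25.0 in GMPs. The share of the transcript outside the floxed exons is 18.5%. The tables give 1 value per gene and no value per exon, so whether the remaining reads come from exons 1 and 8, from undeleted cells or from both was not tested. Daxx-KO and DKO did not differ in Daxx beyond their spread: the 95% interval of the log2 difference, DKO minus Daxx-KO, ran from -0.57 to 0.60 in KLS cells and from -0.62 to 0.60 in GMPs.

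**Figure D1:**
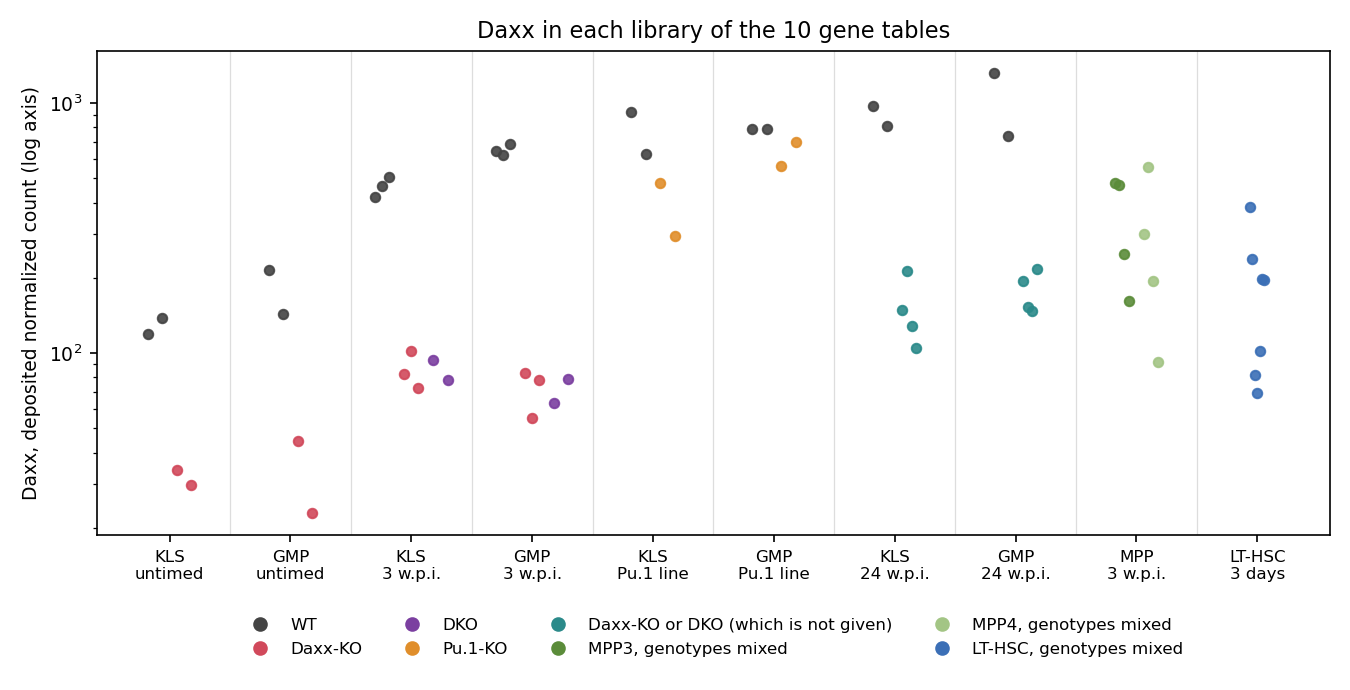
Daxx by library. The vertical axis is the deposited normalized count on a log axis, each point is 1 library, the 10 tables stand side by side, and colours mark genotype or, where no genotype is given, cell type. Every Daxx-KO and DKO point lies below every WT point of its table, with Daxx-KO at 72.2 to 102 and WT at 423 to 505 in KLS cells at 3 w.p.i.; sizes are comparable only within a table.

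At 24 w.p.i. the WT libraries had Daxx at 976 and 807 in KLS cells, and the 4 Daxx F/F libraries at 148, 213, 129 and 104. In GMPs the WT values were 1322 and 737, and the 4 others were at 194, 153, 147 and 217. The 2 sets do not overlap in either population. They were not tested, because the 4 libraries mix Daxx-KO and DKO, and because the WT and the Daxx F/F libraries also differ in Eif2s3y, a Y-linked gene, at 0 to 1.32 in WT and at 601 to 819 in the others in KLS cells (0 and 689 to 1120 in GMPs). Sex and genotype cannot be told apart there.

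The libraries with no genotype in their names spread over a wide range. LT-HSCs had Daxx between 69.5 and 384 with a median of 196 over 7 libraries. MPP3 had 477, 470, 249 and 161, and MPP4 had 299, 556, 194 and 92.4. Both MPP populations and LT-HSCs therefore hold libraries with high and with low Daxx, and these were not sorted into genotypes.

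Before the other members, the background of each comparison is given, since a count of called members is read against it. Among all genes tested, 23.1% were called in untimed KLS cells and 33% in untimed GMPs. For KLS cells at 3 w.p.i. the shares were 0.257% for Daxx-KO against WT, 17.6% for DKO against WT and 15.4% for DKO against Daxx-KO. For GMPs at 3 w.p.i. they were 0.0948%, 0.292% and 0.0583% in the same order. In the Pu.1 set 0.81% were called in KLS cells and 17.6% in GMPs, and between MPP3 and MPP4 the share was 0%.

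Against this background the other members differed little from WT. Of the 36 differences from WT of the 6 other tested members in the Daxx line, 4 were called, and all 36 lay between -0.41 and 0.67 on the log2 scale. With Daxx counted, the called members were 2 of 7 in untimed KLS cells, 3 of 7 in untimed GMPs, 1 of 7 in Daxx-KO and 2 of 7 in DKO KLS cells of the 3 w.p.i. set, with 1 of 7 in Daxx-KO and in DKO GMPs. In both untimed comparisons, and in DKO KLS cells at 3 w.p.i., the number beyond Daxx is near what the background share gives for a group of this size. No member was called between DKO and Daxx-KO in either population by limma, edgeR or DESeq2. At an unadjusted p under 0.05 there was 1 member in KLS cells (Cabin1, log2 difference -0.37 ± 0.15) and 0 in GMPs.

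**Figure D2:**
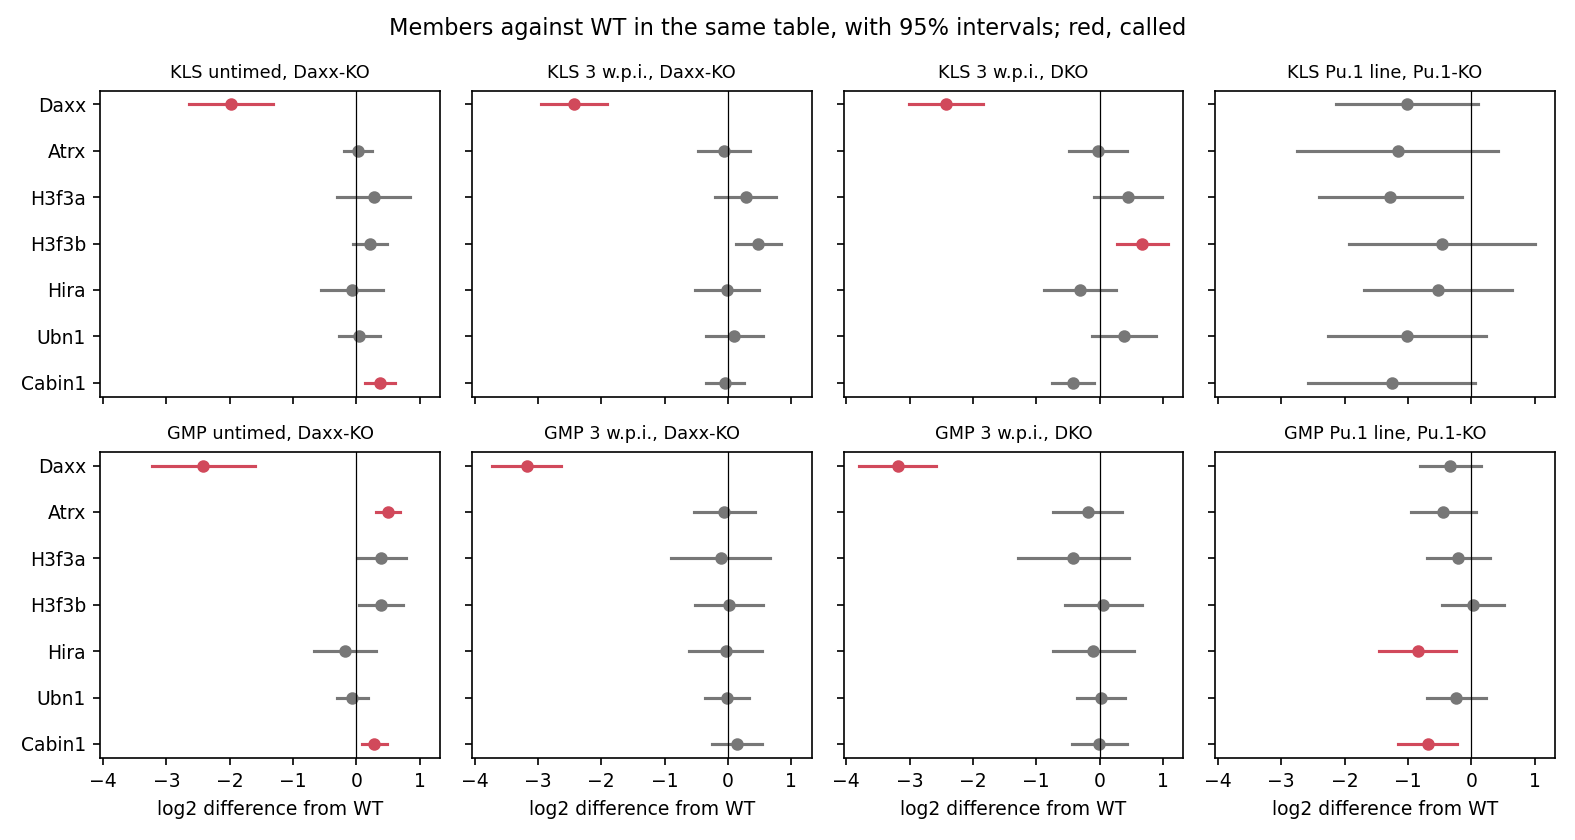
Differences of the 7 tested members from WT. The horizontal axis is the log2 difference from WT in the same table, points are limma estimates, bars are 95% intervals, red marks an adjusted p under 0.05, the upper row is KLS cells and the lower row GMPs. Daxx stands at -1.98 to -3.19 in the 6 panels of the Daxx line, the other members stay between -0.41 and 0.67 there, and the intervals are widest in the KLS cells of the Pu.1 set.

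Atrx, the X-linked remodeller that works with DAXX, did not fall with it. In KLS cells at 3 w.p.i. it had 9431, 10298 and 8521 in WT, 8416, 10946 and 7894 in Daxx-KO, and 11046 and 7701 in DKO. The groups overlap, and the log2 differences from WT were -0.06 in Daxx-KO (95% interval -0.47 to 0.34) and -0.03 in DKO (-0.48 to 0.43). In GMPs at 3 w.p.i. the values were 7251, 9446 and 7385 in WT, 7966, 9013 and 6240 in Daxx-KO, and 7997 and 6101 in DKO, and they overlap as well (log2 differences of -0.06 and -0.19).

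Untimed cells gave a different picture for Atrx in 1 of the 2 populations. In KLS cells WT had 5414 and 5808 and Daxx-KO had 5800 and 5621, a log2 difference of 0.03 (95% interval -0.19 to 0.25). In GMPs WT had 4060 and 3899 and Daxx-KO had 5490 and 5750. Here the Daxx-KO libraries were both above WT, and the log2 difference of 0.50 ± 0.08 was called (adjusted p = 0.00164, limma). The same comparison at 3 w.p.i. gave -0.06 with a 95% interval of -0.54 to 0.43. The difference between the 2 data sets was not tested, since they were normalized separately and the untimed cells may come from transplanted mice.

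Composition moved with that result. The summed level of 4 late neutrophil markers was 449 to 621 CPM (reads scaled to the gene reads of the library) in untimed WT GMPs and 2459 to 3768 in Daxx-KO GMPs, with none of the 4 at 0, while the 8 GMP markers were at 10503 to 10579 and at 9557 to 10068. The part of this shift in the Atrx difference was not tested. At 24 w.p.i. Atrx was at 15093 and 14125 in WT KLS cells and at 12844 to 16235 in the 4 Daxx F/F libraries. In GMPs the 2 WT libraries had 14126 and 13585 and the other 4 had 10848 to 12507, all below WT. Atrx is X-linked, and these GMPs also differ in the Y-linked Eif2s3y (0 in WT and 689 to 1120 in the others). Sex and genotype cannot be told apart there. The late neutrophil sum in these GMPs was 2649 to 2875 CPM in WT and 8721 to 22893 in the others, and its part in the values was not tested.

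H3f3b gave most of the reads of the H3.3 genes. Its share of the reads of H3f3a and H3f3b together was 81.4 to 98.0% with a median of 90.1%, and it was above H3f3a in 59 of 59 libraries. The share was 85.0 to 87.7% in WT, 86.1 to 89.3% in Daxx-KO and 85.4 to 90.4% in DKO KLS cells at 3 w.p.i., so the genotypes overlap. In LT-HSCs it was 94.8 to 98.0%. Reads of H3f3a could have been split with H3f3c, which is left out of this share. In LT-HSCs H3f3c was at normalized counts of 71.6 to 435 and H3f3a at 86.0 to 293. In WT KLS cells at 24 w.p.i. H3f3c was at 784 to 841 and H3f3a at 556 to 602. The part of H3f3c in the share was not tested.

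In KLS cells at 3 w.p.i. H3f3b itself was called against WT in DKO and not in Daxx-KO. WT had 2773, 2443 and 2710, Daxx-KO had 3340, 4737 and 3145, and DKO had 4332 and 4082. Every knockout library was above every WT library. Both knockouts were set against the same WT libraries, and the share of all genes that separate in this way was not counted. In DKO, where 17.6% of all genes were called, the log2 difference of 0.67 ± 0.18 was called (adjusted p = 0.0311, limma). In Daxx-KO the difference of 0.48 ± 0.16 was not called (unadjusted p = 0.0143, adjusted p = 0.335, limma). Of all genes tested there, 11.7% had an unadjusted p under 0.05. DKO and Daxx-KO differed by 0.19 with a 95% interval of -0.21 to 0.60.

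The call in DKO rested on few libraries. It was lost when WT 1, WT 2, DKO 1 or DKO 2 was left out (adjusted p of 0.0743, 0.101, 0.188 and 0.0755, limma), and with the replicate number as a block (adjusted p = 0.0876), with log2 differences of 0.62 to 0.72 in these fits. The libraries labelled DKO also carried more myeloid message: the 8 GMP markers summed to 7022 to 8097 CPM against 380 to 3365 in WT, and the 4 late neutrophil markers to 9083 to 10547 against 21.6 to 1458, with no marker of either list at 0. The 8 stem and multipotent markers summed to 1481 to 2042 against 3664 to 5151. In Daxx-KO the GMP and late neutrophil sums were 295 to 960 and 52.5 to 360, which overlap WT. Other lists did separate Daxx-KO from WT: B lineage markers summed to 37.0 to 575 CPM against 17.4 to 30.5, T cell markers to 23.5 to 40.7 against 9.54 to 11.9, and megakaryocyte markers to 36.4 to 40.5 against 74.7 to 96.0. Their part in the H3f3b difference was not tested.

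In GMPs at 3 w.p.i. H3f3b did not separate the groups. WT had 4509, 2699 and 4254, Daxx-KO had 4094, 3190 and 4096, and DKO had 3215 and 4701, with log2 differences of 0.02 and 0.06. Untimed KLS cells had 1727 and 1872 in WT and 1912 and 2277 in Daxx-KO, a log2 difference of 0.21 (95% interval -0.05 to 0.48). Untimed GMPs had 1397 and 1705 in WT and 1711 and 2366 in Daxx-KO, and their difference of 0.38 ± 0.15 was not called (adjusted p = 0.0896, limma), though it was with DESeq2 (adjusted p = 0.0377). At 24 w.p.i. WT GMPs had 6791 and 5555 and the 4 Daxx F/F libraries had 7265 to 8164, all above WT. Sex and genotype cannot be told apart in these GMPs, with Eif2s3y at 0 in WT and 689 to 1120 in the others. Their late neutrophil sums also separate (2649 to 2875 CPM in WT and 8721 to 22893 in the others), and its part was not tested. In KLS cells at 24 w.p.i. the 2 WT values of 6913 and 7653 lay inside the range of the other 4, 5807 to 9282.

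H3f3a, the other H3.3 gene, was called in no comparison with WT. Its values in KLS cells at 3 w.p.i. were 388, 433 and 430 in WT, 399, 633 and 508 in Daxx-KO, and 459 and 698 in DKO. The log2 differences were 0.28 (95% interval -0.20 to 0.76) and 0.44 (-0.09 to 0.98). In GMPs the WT libraries alone spread from 392 to 930, with all 3 Daxx-KO libraries inside that range and DKO at 409 and 666, and the log2 differences were -0.11 and -0.41. Its annotated exons also overlap 2 genes of the opposite strand (Gm17275 and H3f3aos, 22.8% of exonic bases), and the use of strand in counting is not given in the sources used here.

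**Figure D3:**
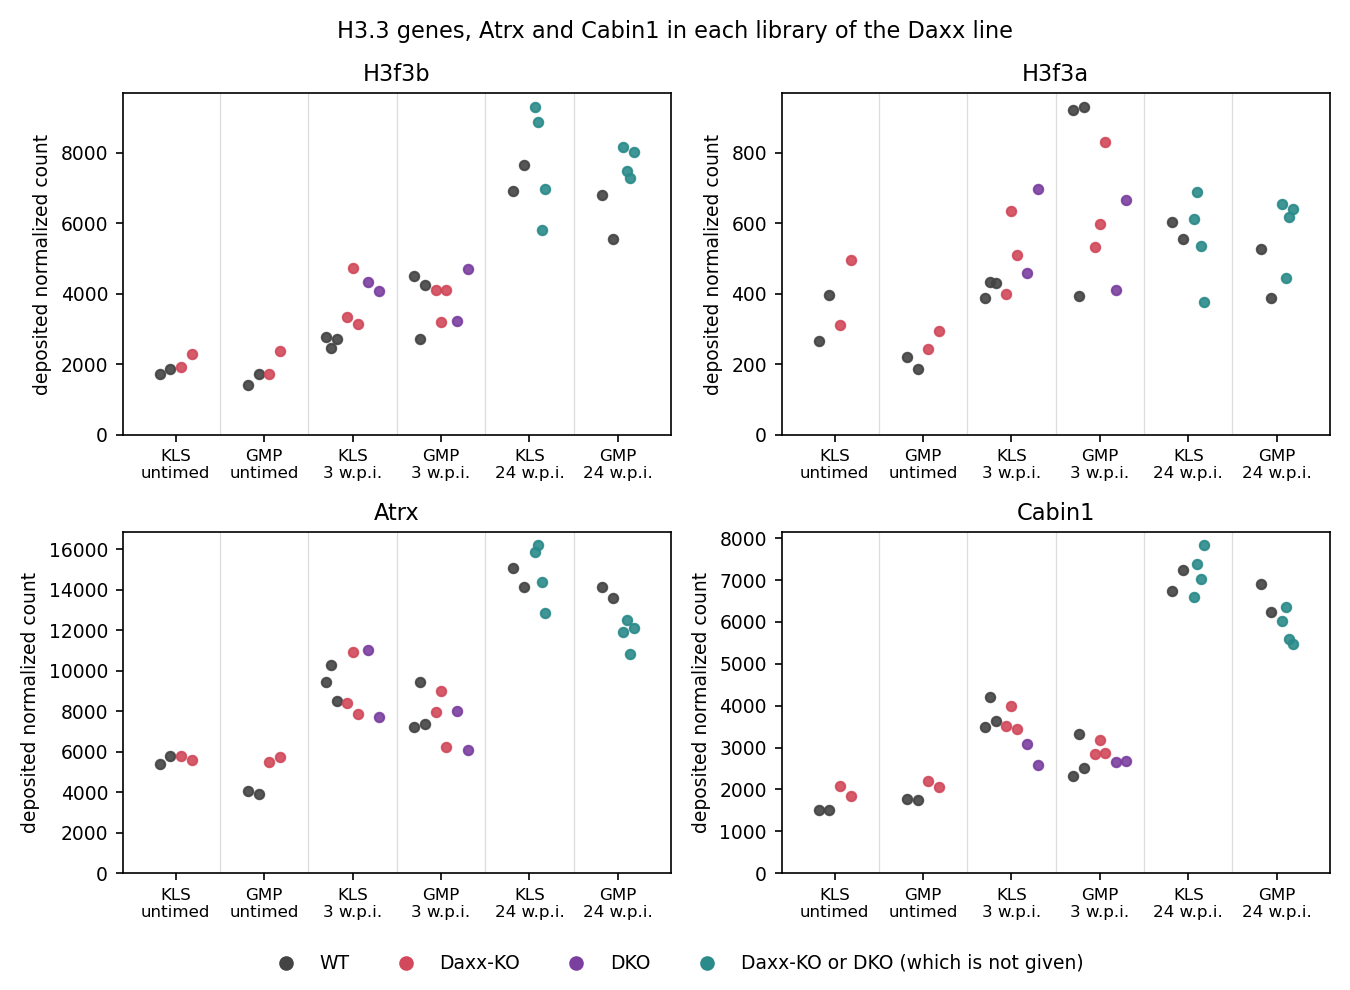
H3f3b, H3f3a, Atrx and Cabin1 in the Daxx line. The vertical axes are deposited normalized counts from 0, each point is 1 library, the 6 tables of KLS cells and GMPs stand side by side, and colours mark genotype. In KLS cells at 3 w.p.i. all H3f3b points of Daxx-KO (3145 to 4737) and DKO (4082 and 4332) lie above WT (2443 to 2773), while Atrx overlaps between genotypes.

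The HIRA complex showed small differences. Cabin1, which encodes calcineurin-binding protein 1, was the member of the complex that was called in the Daxx line. In untimed KLS cells it had 1516 and 1511 in WT and 2077 and 1855 in Daxx-KO, a log2 difference of 0.38 ± 0.10 (adjusted p = 0.0313, limma). In untimed GMPs it had 1769 and 1750 in WT and 2212 and 2071 in Daxx-KO, a difference of 0.28 ± 0.09 (adjusted p = 0.0332, limma). The Daxx-KO libraries were above WT in both populations.

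These calls were near the threshold. Leaving out any 1 of the 4 KLS libraries ended the call there (adjusted p of 0.0977 without WT 2, 0.0814 without WT 1, 0.231 without Daxx-KO 1 and 0.143 without Daxx-KO 2). In GMPs it ended without WT 1, WT 2 or Daxx-KO 1 (0.135, 0.161 and 0.103). Without the filter on low values it ended in both populations (0.0921 in KLS cells and 0.0506 in GMPs). With the replicate number as a block the adjusted p was 0.0562 in GMPs. In the untimed KLS cells the 8 stem and multipotent markers summed to 4134 to 4214 CPM in WT and to 827 to 880 in Daxx-KO, and the 8 GMP markers to 109 to 209 and 1747 to 2288, with none at 0 in either group. Both sums were without overlap between the genotypes, and their part in the values was not tested.

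At 3 w.p.i. Cabin1 in KLS cells was 3482, 4206 and 3643 in WT and 3520, 3994 and 3445 in Daxx-KO, which overlap (log2 difference -0.05, 95% interval -0.34 to 0.25). DKO had 3087 and 2587, both below WT, with a difference of -0.41 ± 0.15 that was not called (adjusted p = 0.0823, limma). In GMPs WT had 2321, 3319 and 2510, Daxx-KO had 2855, 3170 and 2867, and DKO had 2664 and 2688, with differences of 0.14 and less than 0.01 in size. At 24 w.p.i. the 4 Daxx F/F libraries had 6606 to 7824 in KLS cells and 5484 to 6351 in GMPs, against WT at 6743 and 7243 and at 6893 and 6233.

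Ubn1, the ubinuclein subunit that binds H3.3 directly, and Hira, the scaffold of the complex, were called in no comparison of the Daxx line. Ubn1 in KLS cells at 3 w.p.i. had 2241, 2525 and 2484 in WT, 2178, 3490 and 2281 in Daxx-KO, and 3789 and 2606 in DKO, with DKO above WT by 0.38 (95% interval -0.12 to 0.88). In GMPs its differences were -0.02 and 0.03, with intervals from -0.36 to 0.32 and from -0.36 to 0.41. Hira had 174, 260 and 258 in WT, 219, 248 and 208 in Daxx-KO, and 195 and 171 in DKO KLS cells (log2 differences of -0.01 and -0.31). Its level is uncertain, because 85.8% of its exonic bases lie inside other annotated genes and 44.7% inside their exons (Gm15798, Gm15799 and Gm28539).

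Asf1a, the histone donor, was listed at 0 in all 59 libraries. The gene lies on chromosome 10 (53596757 to 53609225, plus strand) wholly inside the body of Mcm9 on the opposite strand, and 48.0% of its exonic bases fall in Mcm9 exons. Mcm9 itself was at 524 to 2008 in the KLS and GMP libraries. Of the 1412 protein-coding genes whose exonic bases all lie inside another gene, 81.8% were at 0 in every library, against 3.0% of 14015 genes with no such base and 2.6% of 6319 with some. Among nested genes with no base in an exon of the other gene the share was 89.3% of 682. No fold or test was made for Asf1a.

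**Figure D4:**
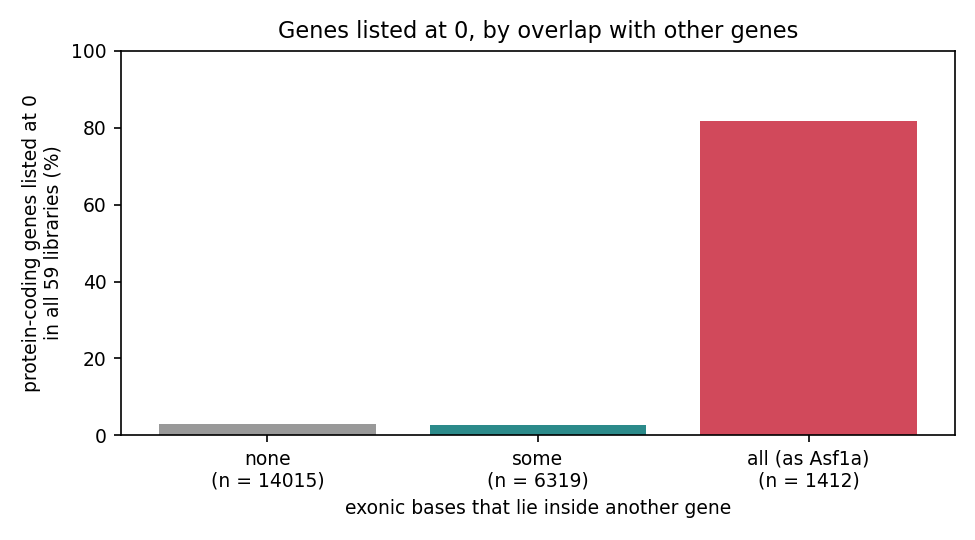
Protein-coding genes listed at 0 in all 59 libraries. Bars are percents from 0 to 100 by whether none, some or all of the exonic bases of a gene lie inside another gene (14015, 6319 and 1412 genes). The bar for fully nested genes, the class of Asf1a, stands at 81.8%, and the others at 3.0% and 2.6%.

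Per length, the members held a similar order in all 10 tables. Levels are given as RPKM (reads scaled to the annotated exon length and to the gene reads of the library), in WT libraries where these are known. H3f3b was first in 10 of 10 tables, Atrx second in 9, and Hira last in 10. The rank of Hira is uncertain, because 85.8% of its exonic bases lie inside other annotated genes. In WT KLS cells at 3 w.p.i. the medians were 68.6 for H3f3b, 32.7 for Atrx, 22.6 for Ubn1, 22.6 for Cabin1, 11.3 for Daxx, 9.25 for H3f3a and 3.13 for Hira. Ubn1 and Cabin1 overlap there, and each other neighbouring pair is separate.

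GMPs of the Daxx line at 3 w.p.i. differed from this order in the middle ranks, while GMPs of the Pu.1 set held it. In untimed cells and at 24 w.p.i. GMPs had the same order of medians as the KLS cells of their own set. In WT GMPs of the Daxx line at 3 w.p.i. the medians were 108 for H3f3b, 25.6 for Ubn1 and Atrx alike, 19.8 for H3f3a, 16.4 for Daxx, 15.6 for Cabin1, with Hira last at 2.18 to 3.50. Ubn1 and Atrx overlap, as do H3f3a and Daxx, and Daxx and Cabin1. The level of Daxx was 10.1 to 12.1 in WT KLS cells and 15.4 to 16.5 in WT GMPs. The corresponding ranges were 5.68 to 6.44 and 7.09 to 10.6 in untimed cells, 12.3 to 14.6 and 17.9 to 18.8 in the Pu.1 set, and the medians were 11.9 and 14.4 at 24 w.p.i. The GMP range was the higher in the first 3 and overlapped with KLS at 24 w.p.i. These levels come from tables normalized separately and were not tested.

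In LT-HSCs H3f3b was at 136 to 184 RPKM, with Atrx at 33.3 to 39.2 and Hira at 1.36 to 3.69 over 7 libraries. In the MPP libraries H3f3b ranged from 49.5 to 115, and all neighbouring pairs below it overlap. Between MPP3 and MPP4, limma, edgeR and DESeq2 called 0 of the 7 members, and 0 had an unadjusted p under 0.05. Of all 20137 genes tested, 107 had an unadjusted p under 0.05, and the median over all genes was -0.11. The intervals were wide: for Daxx the log2 difference was 0.40 with a 95% interval of -0.78 to 1.57, and for Atrx 0.30 with -0.27 to 0.87. Genotypes are mixed in both groups, and some libraries named for the same animal do not match in the Y-linked Eif2s3y, which was at 0 in MPP3 a and 40.0 in MPP4 a, and at 29.1 in MPP3 b and 0 in MPP4 b.

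**Figure D5:**
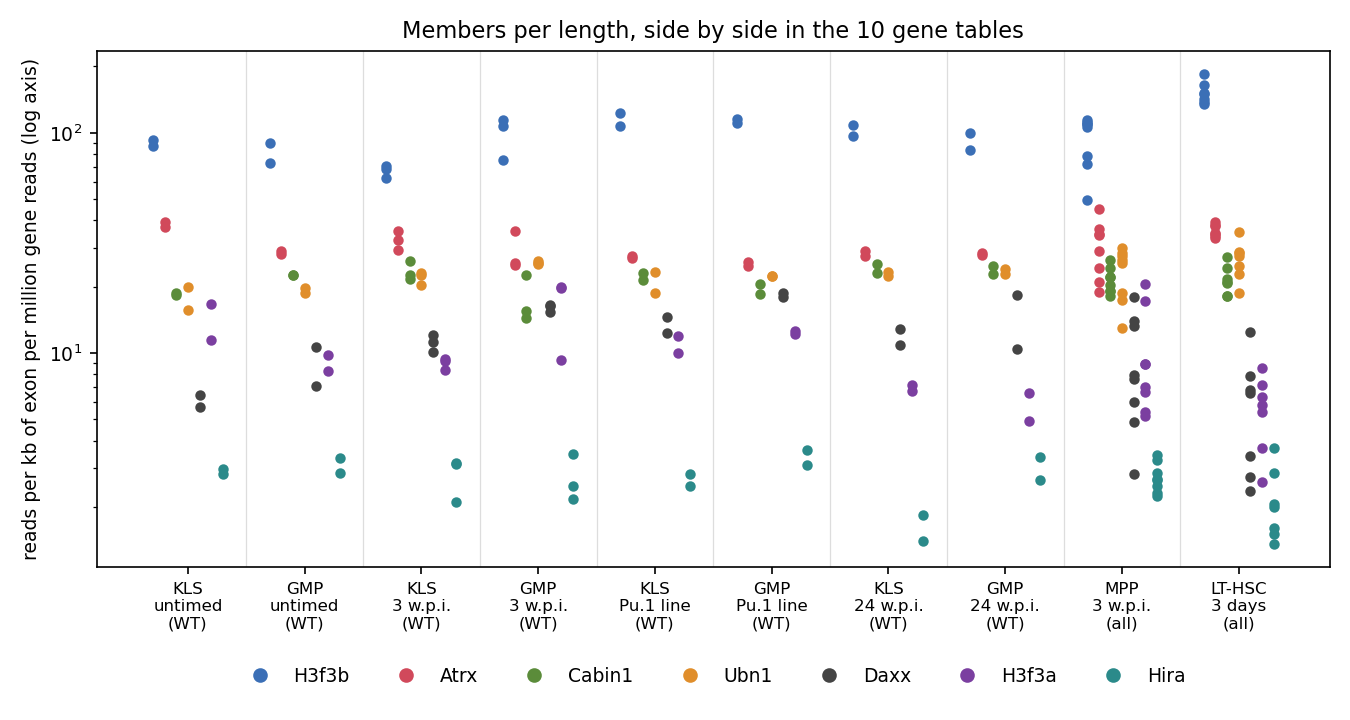
Levels per length in the 10 tables. The vertical axis is RPKM (reads per kb of exon, scaled to library depth) on a log axis, each point is 1 library (WT where known, all libraries for MPP and LT-HSC), and colours mark genes. H3f3b lies on top and Hira at the bottom in each table by median, with 68.6 and 3.13 in WT KLS cells at 3 w.p.i. The level of Hira is uncertain, because most of its exonic bases lie inside other annotated genes.

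In the Pu.1 set, where the knockout leaves Daxx intact, all 7 tested members had lower mean normalized counts in KLS cells and 6 of 7 in GMPs. The direction depended on the scaling for some: as RPKM, H3f3b had means of 116 in Pu.1-KO and 115 in WT KLS cells. In GMPs H3f3a (12.7 and 12.4 RPKM), H3f3b (136 and 113) and Ubn1 (22.4 and 22.3) were not lower in Pu.1-KO on that scale. In KLS cells 0 of 7 were called by limma, edgeR or DESeq2 (1 at an unadjusted p under 0.05), and the median over all genes stood at 0.12. Cabin1 had 5630 and 4187 in WT and 2944 and 1401 in Pu.1-KO, a log2 difference of -1.26 (95% interval -2.58 to 0.07). Atrx had 11754 and 9710 in WT and 7850 and 2914 in Pu.1-KO. Pu.1-KO b was the lowest library for each of the 7, and without Pu.1-KO a, which leaves b alone, 5 of 7 were called (Daxx, Atrx, H3f3a, Ubn1 and Cabin1). In that fit the calls over all genes rose as well, from 190 with both, so the rise in calls was not particular to the members.

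In GMPs of that set 2 of 7 were called, where 17.6% of all genes were called, so the count is near what that share gives for a group of this size. Cabin1 had 2984 and 3482 in WT and 1771 and 2276 in Pu.1-KO, a log2 difference of -0.68 ± 0.24 (adjusted p = 0.0306, limma). Hira had 257 and 316 in WT and 140 and 179 in Pu.1-KO, a difference of -0.84 ± 0.31 (adjusted p = 0.0415, limma). Daxx had 788 and 787 in WT and 558 and 701 in Pu.1-KO, a difference of -0.33 that was not called (adjusted p = 0.330, limma). Hira was not called without the filter or under TMM, edgeR or DESeq2 (adjusted p of 0.0594, 0.0622, 0.0824 and 0.0527), and Cabin1 was not without the filter (0.0568). With either WT library left out 0 of 7 were called, with Pu.1-KO a left out 1, and with Pu.1-KO b left out 6. Over all genes the calls also fell without either WT library or without Pu.1-KO a, and rose without Pu.1-KO b.

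Several values move with these results. The libraries of the Pu.1 set had a read in 24539 to 30291 genes, against 17066 to 22416 in the other KLS and GMP tables. The 4 late neutrophil markers summed to 1261 to 1754 CPM in WT GMPs and to 9718 to 11677 in Pu.1-KO GMPs, where the 8 GMP markers summed to 19921 to 20684 and to 10230 to 14637. In KLS cells the late neutrophil sum was 1016 to 1482 in WT and 4291 to 6400 in Pu.1-KO. Stem and multipotent markers there were at 2694 to 2771 and 1105 to 1831, and megakaryocyte markers were at 134 to 175 in WT and lower without overlap in Pu.1-KO, from 44.5 upward. Eif2s3y ranged from 2.71 to 11.8 in WT and from 108 to 474 in Pu.1-KO KLS cells. Sex and genotype cannot be told apart in these KLS cells, and Atrx is X-linked. In GMPs Eif2s3y ranged from 3.92 to 6.35 in WT and from 5.99 to 370 in Pu.1-KO, which overlap. The KLS and GMP libraries of Pu.1-KO b carry the same animal number and do not match in Eif2s3y. The parts of these values in the results were not tested.

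Spi1, the targeted gene of that set, had 2080 and 2764 in WT and between 1307 and 2921 in the KLS libraries labelled Pu.1-KO, which overlap. In GMPs it had 3395 and 3934 in WT and 2589 and 2707 in Pu.1-KO. In the KLS libraries labelled DKO at 3 w.p.i. it was 2994 and 3330, above WT at 1669 to 2320, and in GMPs 2989 and 3846 against 3348 to 4604. Which exons of Spi1 are floxed is not given in the sources used here, so gene-level reads do not check these labels, and directions are those of the libraries labelled DKO or Pu.1-KO.

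Other histone chaperones were counted beside the H3.3 members. A list of 32 other chaperone genes (the partners of HIRA, CAF-1, FACT, replication-coupled factors, H2A.Z exchangers and proteins of PML bodies) was used, and all 32 were tested in each comparison. The list was chosen with earlier results of these data known. In untimed GMPs 2 rose and 16 fell, where 33% of all genes were called (2110 higher and 2099 lower), and the median log2 difference was -0.32 against -0.01 over all genes. The late neutrophil sums given above for these libraries move with this, as do the megakaryocyte markers (51.4 to 60.7 CPM in WT and 11.3 to 28.3 in Daxx-KO), and their part was not tested. The smallest adjusted p-values among those that fell were for Dek, an H3.3-binding chromatin protein (1134 in Daxx-KO and 2625 in WT, log2 difference -1.22 ± 0.10), Anp32e, which removes H2A.Z (541 and 1156, -1.09 ± 0.10), and Mms22l, a replication-fork factor (1036 and 2098, -1.02 ± 0.10). Sp100, a component of PML bodies, rose by 1.06 ± 0.12 (2180 and 1043), and Chd2, a remodeller, rose by 0.58 ± 0.08.

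In untimed KLS cells, where 23.1% of all genes were called, 0 of the 32 rose and 2 fell, with a median of 0.06 against 0.03 over all genes. These were Chaf1b, a CAF-1 subunit (322 in Daxx-KO and 546 in WT, log2 difference -0.75 ± 0.14), and Hjurp, the chaperone of the centromeric H3 (1347 and 1772, -0.40 ± 0.10). At 3 w.p.i. none of the 32 was called in Daxx-KO KLS cells or in Daxx-KO or DKO GMPs by limma, edgeR or DESeq2. At an unadjusted p under 0.05 there were 2, 0 and 0. The medians were 0.19, -0.01 and -0.03 against 0.00, -0.01 and -0.01 over all genes.

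In DKO KLS cells 5 rose and 2 fell against WT, and this number of calls is near the 17.6% called among all genes. Sp100 rose by 0.87 ± 0.17 (5574 and 3000), Hjurp by 0.98 ± 0.22 (5561 and 2843) and Pml, the scaffold of PML bodies to which DAXX is recruited, by 0.63 ± 0.15 (4322 and 2808). Ipo4, an importin for H3-H4, fell by 1.27 on the log2 scale (289 and 691), and Nap1l1, an H2A-H2B chaperone, by 0.64. Against Daxx-KO, where 15.4% of all genes were called, 4 rose and 4 fell, among them Sp100 (1.14 ± 0.17), Pml (0.64 ± 0.15) and Asf1b, the proliferation-linked paralogue of Asf1a (1.73 ± 0.46), upward, and Ipo4 (-1.47 ± 0.18), Nap1l1 (-0.76 ± 0.12) and Npm1, the nucleolar chaperone (-0.99 ± 0.18), downward. DKO and Daxx-KO were set against the same WT libraries, and DKO entered both of these comparisons. The myeloid marker sums given above for DKO KLS cells move with these values too.

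In GMPs of the Pu.1 set, where 17.6% of all genes were called, 1 of the 32 rose and 7 fell. The median was -0.46 against -0.002 over all genes. Sp100 rose by 0.70 ± 0.24 (3102 and 1890), and Npm1 (-1.01 ± 0.25), Nap1l1 (-0.79 ± 0.24) and Ipo4 (252 in Pu.1-KO and 505 in WT) fell. In KLS cells of the set 0 of 32 were called by limma, 1 by edgeR and 2 by DESeq2, and 8 had an unadjusted p under 0.05. The median there was -0.95 with 1 of 32 positive, against 0.12 over all genes. In these KLS libraries Pu.1-KO b was the lowest for each of the 7 tested members, and the direction of H3f3b depended on the scaling. Whether the 32 genes depend on that library or on the scaling was not tested. Between DKO and Daxx-KO GMPs and between MPP3 and MPP4 none of the 32 was called by any of the 3 tools, and 1 and 0 had an unadjusted p under 0.05.

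The genes whose values followed Daxx most closely were sought over the 24 untimed and 3 w.p.i. libraries of the Daxx line, as log2 values centred within each table, among 8941 genes with a mean of 50 or more in each of the 4 tables. They were Zfp951 (Pearson's r = 0.94), Gm26573 (0.88) and Gm13212 (0.83). For Atrx they were Chd8 (0.91), Akap9 (0.88) and Mycbp2 (0.88). The libraries share genotype, animal and depth, and for Daxx the genotype sets most of the spread. Among the members, Daxx had r = -0.06 with Atrx and -0.46 with H3f3b, and Atrx had 0.54 with Cabin1, 0.42 with Hira and 0.39 with Ubn1.

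Depth, by whole reads recovered from the values, ran from 3.39 M to 22.6 M gene reads in untimed libraries, 10.7 M to 19.1 M at 3 w.p.i. in KLS cells and GMPs, 15.5 M to 30.1 M at 24 w.p.i., and 3.05 M to 17.9 M in MPP and LT-HSC libraries. Behind the Daxx values stood 22 to 1211 reads per library, behind Hira 38 to 551, behind H3f3b 844 to 11379 and behind Atrx 1926 to 19451. The low knockout values of Daxx are therefore the least precise.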

How the data were processed

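RNA-seq values per gene were taken from 10 deposited tables. Per the labels, the authors aligned reads to mm10, and the submitters' processing notes name cutadapt 1.13, STAR 2.5.3, CASAVA 1.8.4 and DESeq2 1.16.1. What counted the reads, and whether strand was used, is not given in the sources used here. The deposited signal values are normalized counts, that is reads divided by 1 size factor per library. In every column 100% of values above 0 were whole multiples of the smallest one, within 0.01, and these recovered reads gave the depth. Per the labels libraries were made with the Ovation SoLo kit, while the methods of the study give another kit for cells at steady state. The 8 repeat tables (52 columns) were not used.

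Groups came from the labels. Columns without a number were placed by the animal number or by the treatment or control ending of the column of the same name in a repeat table, and 1 of the 3 WT columns at 3 w.p.i. in each population has a number that no label gives. The members and gene lists were chosen with earlier results of these data known.

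Under R 4.3.3, limma 3.58.1 (trended prior variance) was run on log2(value + 1), on genes with a mean of 10 or more, with all libraries of a table in 1 fit. Tests were two-sided, with Benjamini-Hochberg adjustment over the genes tested. Fold changes on this scale understate changes of low genes. The scripts were tested on simulated data. Alternatives were a pseudocount of 10, no filter, TMM scaling, edgeR 4.0.16 and DESeq2 1.42.0 on recovered reads, each library left out, only the 2 groups compared, and a replicate block. Named genes were the 8 members, called genes of the list of 32 other chaperones (at most 3 with the smallest adjusted p per direction and comparison), and 3 genes most like Daxx and Atrx each. Genotypes of the 24 w.p.i., MPP and LT-HSC tables were not tested. MPP and LT-HSC columns give none, and the Daxx F/F columns at 24 w.p.i. do not say which are Daxx-KO and which DKO. Annotation, coordinates and sequences came from GENCODE on GRCm38, matched by symbol.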

Additional observations from a re-analysis of the deposited data

Results flagged for a closer look

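Of 35 groups of 4 to 10 libraries checked for a library far from the others, 2 stood out, where chance gives about 1 in 20. H3f3a in MPP3 c had a normalized count of 624, against 196 to 259 in the other 3 MPP3 libraries; that library had the fewest gene reads of the MPP table, 3045852. H3f3b in MPP4 a had 1750, against 3219 to 3465 in the other 3 MPP4 libraries. Effects were also checked in 42 pairs, either between KLS cells and GMPs or between untimed and 3 w.p.i. cells of the same population. Of these, 1 stood out, in which every DKO library lay above the WT mean in KLS cells and below it in GMPs. It was H3f3a in DKO against WT, with log2 differences of 0.44 in KLS cells and -0.41 in GMPs at 3 w.p.i. These are 0.85 apart, and this difference was not tested.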

How the results depend on the processing

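Of 124 counts of called members over all alternatives, 105 stayed within 1.5 times the value reported and 19 did not, and no called difference changed sign. In untimed KLS cells 1 member was called without the filter in place of 2, and 0 to 1 with a library left out. In KLS cells at 3 w.p.i., DKO against WT gave 1 in place of 2 with the replicate block and with either numbered WT or either DKO library left out. In GMPs of the Pu.1 set, 0 were called without the filter and 1 under TMM, edgeR or DESeq2, in place of 2, and 0 to 6 with a library left out; in KLS cells of that set 0 to 5 with a library left out. Where this leaves 1 library in a group, it is assumed to vary like the others. Counts over all genes depended more on the tool. In KLS cells at 3 w.p.i. DESeq2 called 342 genes in Daxx-KO in place of 39 (81 with the block), and in GMPs 80, 263 and 280 genes in Daxx-KO, DKO and DKO against Daxx-KO in place of 13, 40 and 8. For KLS cells of the Pu.1 set 190 genes were called, 1920 by edgeR and 1357 by DESeq2. In untimed KLS cells 1751 genes were called without the filter in place of 3118. The cause was not tested. TMM moved the calls of all genes in KLS cells of the Pu.1 set from 110 higher and 80 lower to 1272 and 326, and in GMPs, DKO against Daxx-KO, from 8 and 0 to 14 and 4.

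Deviations of same-numbered libraries correlated at r of -0.07 in untimed KLS cells, -0.13 in untimed GMPs and -0.25 to 0.20 in KLS cells at 3 w.p.i. MPP3 and MPP4 libraries that carry the same number had r of -0.36, 0.20, 0.46 and 0.56, so 3 of 4 pairs deviated together. As not every pair did so, the numbers are not taken as pairs. With the block 2 members were called in untimed KLS cells and 3 in untimed GMPs, and 4 with the numbers crossed, an alternative chosen after seeing the data, as was the block in the MPP table, where 0 were called. The tests of genotype planned for the 24 w.p.i., MPP and LT-HSC tables were not run. MPP and LT-HSC columns name no genotype, and at 24 w.p.i. Daxx-KO and DKO columns could not be told apart. Daxx knockouts have as few as 22 reads, which limits the precision of what is left.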
